A study of Mus musculus with 13 samples.

Results

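Chromatin immunoprecipitation and sequencing placed SMAD2/3, in both activin libraries of LβT2 cells, at 176 regions near an annotated gene start, within 1000 bp in at least 1 library. LβT2 is an established mouse cell line derived from the pituitary that resembles the gonadotrope, the hormone cell that secretes luteinizing hormone and follicle-stimulating hormone. The 176 regions are a small part of the 5162 regions that had a SMAD2/3 peak in both activin libraries, and of the 8544 regions with a peak in either. They were selected on the SMAD2/3 peaks of the activin libraries themselves: peaks of the 2 lists were merged where they shared at least 1 bp, a peak in both was required, and at least 1 of these peaks had to be annotated within 1000 bp of a start. The activin SMAD2/3 values at these regions are therefore a description, and the other 4986 shared regions are called distal here.

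All cells were of 1 stably transduced LβT2 line. A lentiviral cassette gave constitutive GFP and, under doxycycline, FLAG-tagged mouse FOXL2, so vehicle and activin cells alike carried the tagged factor. Cells recovered for 24 h, had doxycycline for 48 h and 2 h in medium with 2% serum, and then received vehicle or activin A at 1 nM for 1 h before fixation in 1% formaldehyde. SMAD2/3, the FLAG tag (FOXL2 below) and histone H3 acetylated at lysine 27 (H3K27ac) were each precipitated from duplicate samples of either treatment (2 and 2), every sample being a pool of 3 plates. Nothing says that the samples came from separate cultures, so a p-value measures only the spread between these samples. A Protein-A control sample was not analysed here.

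Activin A binds a pair of receptor kinases that phosphorylate SMAD2 and SMAD3, which then enter the nucleus with SMAD4 and bind short DNA motifs beside other transcription factors. FOXL2 is a forkhead factor of gonadotropes and of ovarian granulosa cells, and is a known partner of SMAD proteins at the gene of the follicle-stimulating hormone beta subunit, Fshb. H3K27ac marks active promoters and enhancers. Most SMAD2/3 binding in many cell types lies far from gene starts, so the regions described here are the minority where the factor sits beside a start.

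The reads behind each library are not in the files, so the depth per region is unknown and the number of peaks stands in for it. SMAD2/3 had 605 and 144 peaks without activin, and 7784 and 5970 with it. FOXL2 had 83834 to 97701 peaks and H3K27ac 38995 to 41763 over their 4 libraries each. The cell type was checked at gene starts: H3K27ac lay within 1000 bp of the starts of Lhb, Cga, Gnrhr, Foxl2 and Lhx3 in 4 of 4 libraries, and in none of the 4 at those of Pou1f1, Prl, Tshb, Pomc and Tbx19, genes of the other pituitary lineages. No peak of any of the 3 targets lay within 1000 bp of the start of Fshb.

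The sequences just upstream of the starts of 6 of these genes are shown because the results return to them: the gonadotropin alpha subunit gene Cga, the receptor gene Gnrhr, the luteinizing hormone beta subunit gene Lhb, the inhibitory SMAD gene Smad6, Gm15401, where FOXL2 was found with activin only, and Mrpl32, where SMAD2/3 was present without activin and FOXL2 was not. Each line gives the 250 bases before the start on the strand of the gene, 5′ to 3′, from RefSeq on GRCm38.p6, the build family of the deposited peaks. Capitals mark the SMAD box (CAGAC), the GC-rich SMAD motifs (GGCGC and GGCCG) and a short forkhead core (TGTTTA), on either strand.
Cga (chr4:34893529-34893778, plus strand): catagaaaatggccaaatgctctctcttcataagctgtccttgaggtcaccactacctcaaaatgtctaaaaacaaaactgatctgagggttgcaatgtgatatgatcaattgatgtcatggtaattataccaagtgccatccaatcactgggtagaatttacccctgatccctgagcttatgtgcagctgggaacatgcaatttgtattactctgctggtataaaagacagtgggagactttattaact
Gnrhr (chr5:86197902-86198151, minus strand): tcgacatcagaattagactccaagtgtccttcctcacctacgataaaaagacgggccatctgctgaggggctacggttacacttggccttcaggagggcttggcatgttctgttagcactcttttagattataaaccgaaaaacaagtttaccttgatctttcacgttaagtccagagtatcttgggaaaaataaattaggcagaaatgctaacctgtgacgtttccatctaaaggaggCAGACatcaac
Lhb (chr7:45420696-45420945, plus strand): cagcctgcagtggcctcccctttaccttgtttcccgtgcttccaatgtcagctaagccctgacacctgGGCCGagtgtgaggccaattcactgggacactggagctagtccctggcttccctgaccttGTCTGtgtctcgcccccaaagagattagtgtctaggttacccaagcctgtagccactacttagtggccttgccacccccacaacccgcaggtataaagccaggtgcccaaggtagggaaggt
Smad6 (chr9:64022060-64022309, minus strand): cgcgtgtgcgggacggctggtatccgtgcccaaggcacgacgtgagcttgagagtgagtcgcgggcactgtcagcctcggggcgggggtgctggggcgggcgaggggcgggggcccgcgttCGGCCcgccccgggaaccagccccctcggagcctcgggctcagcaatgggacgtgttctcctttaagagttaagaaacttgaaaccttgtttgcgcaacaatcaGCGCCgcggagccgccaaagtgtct
Gm15401, first start (chr6:72629038-72629287, plus strand): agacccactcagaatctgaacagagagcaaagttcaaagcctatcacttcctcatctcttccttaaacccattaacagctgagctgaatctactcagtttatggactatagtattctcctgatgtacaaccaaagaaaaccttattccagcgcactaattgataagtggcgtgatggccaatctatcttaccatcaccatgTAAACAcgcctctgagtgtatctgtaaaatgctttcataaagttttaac
Gm15401, other start (chr6:72629581-72629830, plus strand): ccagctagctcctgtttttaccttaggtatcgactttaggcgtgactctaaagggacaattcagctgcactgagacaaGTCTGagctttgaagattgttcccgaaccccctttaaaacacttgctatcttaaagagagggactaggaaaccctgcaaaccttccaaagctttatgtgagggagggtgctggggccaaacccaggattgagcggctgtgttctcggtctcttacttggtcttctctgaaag
Mrpl32 (chr13:14613038-14613287, minus strand): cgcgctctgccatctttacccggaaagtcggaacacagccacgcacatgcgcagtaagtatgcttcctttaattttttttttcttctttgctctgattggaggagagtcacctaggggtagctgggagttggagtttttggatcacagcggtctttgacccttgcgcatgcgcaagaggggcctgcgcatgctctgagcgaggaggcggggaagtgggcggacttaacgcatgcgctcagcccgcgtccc

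The window of Cga held none of the capitalised motifs. The whole of it lay inside the SMAD2/3 region, but the summits of both activin SMAD2/3 peaks lay upstream of it, in sequence not shown. Gnrhr had 1 SMAD box, starting 11 bases before the start, and its activin SMAD2/3 summits also lay upstream of the window. Lhb had a SMAD box at −122 and a GC-rich motif at −182, both inside its SMAD2/3 region, and Smad6 had GC-rich motifs at −25 and −129, the first of them inside. In Gm15401 a forkhead core at −49 of the first start straddled the edge of the region. A SMAD box at −172 of the other start lay inside, and the activin SMAD2/3 summits lay between the windows shown. The Mrpl32 window held no SMAD box, GC-rich SMAD motif or forkhead core, and it held 1 match to the motif of the factor NRF1 at −87, a GC box (GGGCGG) and an inverted CCAAT box, all inside the region. A match of this kind is a description of the letters and not of binding.

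Over the 31 upstream windows in the RefSeq promoter table that overlapped a SMAD2/3 region (30 genes), a SMAD box was present in 16, or 51.6%, against 42.2% of all 32851 windows in that table and 41.7% of the 6508 windows with H3K27ac and no activin SMAD2/3. The GC-rich motifs were present in 48.4% (GGCGC) and 41.9% (GGCCG), against 57.9% and 54.6% of the acetylated windows without SMAD2/3 and 32.0% and 30.4% of all. The SMAD palindrome (GTCTAGAC) was found in 0 of 31 and in 0.167% of all windows. A full forkhead motif (TGTTTAC) was found in 2 windows, 6.45%, against 3.17% of all, and its short core, which it contains, in 6.45% against 12%. The acetylated windows without SMAD2/3 held them in 1.86% and 6.65%. Among motifs of other factors, the AP-1 site (TGANTCA) was in 0 windows against 6.75% of all, and the cAMP response element (TGACGTCA) in 0 against 1.55%. The ETS site (CCGGAAGT) was in 9.68% against 2.88%, the GC box in 54.8% against 32.7%, the NRF1 motif in 9.68% against 0.782%, and the CCAAT box in 32.3% against 33.8%. All motifs were searched on both strands. The acetylated windows without SMAD2/3 held the ETS site in 7.31%, the GC box in 55.5% and the NRF1 motif in 2.07%, and the median GC content was 57.2% at the SMAD2/3 windows, 60.4% at the acetylated windows and 52.4% over all. A motif was counted anywhere in a window, inside the SMAD2/3 region or not, and the overlap could be as short as 5 of the 250 bases (Cenpc1). The 31 windows touch only part of the 176 regions, and some of them overlap one another. The NRF1 match of Mrpl32 also lies in the window of Psma2, so that site was counted in both. Counts of 2 or 3 windows carry little precision, and no difference between these shares was tested.

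The label of a gene promoter holds for part of these regions. The nearest start belonged to a protein-coding gene at 94 of 176 regions, 53.4%. These starts are those of the authors' annotation, and some are not the start in the RefSeq promoter table. The region at Ppp1r1c lies 77814 bp from the nearest start in that table, and that at Prrc2c 10105 bp. Of the 94, 47 had the SMAD2/3 summit of activin replicate 1 within 1000 bp of any start there. That table has no entry for some genes, Pitx1 among them, so a far start can be a missing entry. The nearest annotated start belonged to a long non-coding RNA at 32 regions, a small RNA at 27, a pseudogene at 12 and a transcript still to be experimentally supported at 11. In the authors' annotation 120 regions were classed as promoter, 23 as intron, 20 as the end of a transcript and 13 as exon. The regions name 172 different genes, and Cdc42bpa, Ccdc68, Gm12065 and Gm37941 have 2 regions each. At 7 of the 82 regions with a non-coding nearest start, an end of a protein-coding RefSeq gene also lay within 1000 bp of the centre. Among these, Gm20544 lies 342 bp from the start of Smad7, an inhibitory SMAD that limits activin and TGF-beta signalling, and 2700016F22Rik lies 216 bp from the start of Ubr4, a ubiquitin ligase gene.

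**Figure D1:**
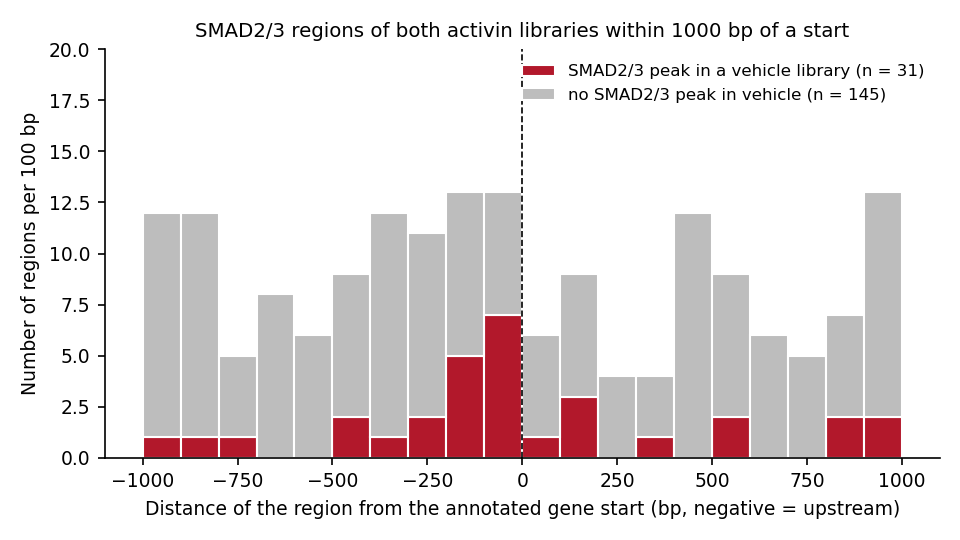
Number of promoter SMAD2/3 regions per 100 bp of distance between the region and the annotated gene start (bp, negative upstream). Red bars are the 31 regions that also had a SMAD2/3 peak in a vehicle library and grey bars the other 145; 18 of the red regions lie within 250 bp of the start.

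The centres were spread over the whole window that the rule allowed. They lay upstream of the start at 101 regions and downstream at 74, within 100 bp at 20, within 250 bp at 51 and within 500 bp at 93. Just inside the limit were Gm12303 at 998 bp, 1600010M07Rik at −997 bp and Gm28906 at −980 bp. Just outside were Omg at −1017 bp, mmu-mir-7646 at −1024 bp and Myh7 at −1029 bp, so the limit cuts through a continuous range of distances.

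Of 16 listed gonadotrope genes that the annotation tables name, 5 had a promoter SMAD2/3 region: Lhb, Cga, Gnrhr, Pitx1 and Foxp2. Over all 15469 protein-coding genes named in the tables the share with such a region was 0.595%. The list of 16 inhibitors of SMAD signalling had 1, Smad6. There was none among 27 ligands, receptors and SMAD genes of the pathway, 21 widely used targets of TGF-beta or BMP, 33 immediate early genes, 10 markers of other pituitary lineages, 22 cell cycle genes, 24 chromatin enzymes, 13 cytoskeletal and adhesion genes and 20 signalling genes. All of these counts go by the gene of the nearest start, so the Gm20544 region, 342 bp from the start of Smad7, did not count for Smad7. The lists were written with earlier results of these data known, so these counts describe the lists and support nothing beyond them.

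Peak strength is given as a percentile rank, the place of a peak by the authors' −log10 q within its own list, where 100 is the strongest. Lists differ in length, so a rank says where a peak stands in its library and a difference in rank between libraries is not by itself a difference in binding. Cga encodes the alpha subunit that luteinizing hormone, follicle-stimulating hormone and thyrotropin share. Its region at chr4:34893273-34893926, centred 189 bp upstream, had SMAD2/3 peaks at rank 86.1 and 69.4 before activin and 96.1 and 91.1 after it. Its FOXL2 peak stood at 99.9 and 99.5 without activin and 100 and 100 with it, and in the second activin library it was the peak in place 23 of 94006. H3K27ac there stood at 99.8 and 99.8 in vehicle against 99.3 and 99.5 in activin. All 12 libraries thus had a peak at Cga, FOXL2 and H3K27ac near the top of every list, and FOXL2 higher and H3K27ac slightly lower in both activin libraries.

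Gnrhr encodes the receptor through which gonadotropin-releasing hormone acts on these cells. Its region (chr5:86197863-86198344, 202 bp upstream) had no SMAD2/3 peak in either vehicle library and ranks of 91.3 and 86.8 with activin. FOXL2 stood at 80.6 and 86.6 (vehicle) and 69.7 and 70.8 (activin), so both activin ranks were below both vehicle ranks. H3K27ac stood at 99.1 and 98.9 without activin and 98.7 and 97.6 with it, also lower without overlap but near the top in every library.

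Lhb encodes the beta subunit of luteinizing hormone. Its region (chr7:45420755-45421007, 57 bp from the start) had SMAD2/3 at ranks 66.0 and 82.1 with activin and none with vehicle, with fold enrichments of 3.14 and 3.96. FOXL2 had no peak there in any of the 4 libraries. H3K27ac stood at 64.1 and 67.7 in vehicle against 89.4 and 79.6 in activin, and both activin ranks were above both vehicle ranks.

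Pitx1 encodes a paired-type homeodomain factor of the early pituitary. The Pitx1 region (chr13:55836428-55836614, 328 bp upstream) was weak for SMAD2/3, at ranks 37.8 and 4.36 with activin and none with vehicle. FOXL2 there was found with activin only, at 22.9 and 6.56, while H3K27ac stood at 99.9 or above in all 4 libraries, with fold enrichments of 14.3, 14.4, 17.1 and 15.2. The FOXL2 peaks thus stood low in both activin lists, where a peak missing in vehicle need not be an absence of binding. Acetylation was near the top of every list. FOXL2 in both activin and neither vehicle library was found at 5.11% of the promoter regions and 7.07% of all shared regions.

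Foxp2 encodes a forkhead repressor. Its region (chr6:15253541-15253795, 599 bp upstream) had SMAD2/3 at 43.3 and 41.4 with activin only. FOXL2 stood at 68.9 and 71.7 without activin and 37.6 and 40.9 with it, among the 5 widest downward differences in FOXL2 rank. H3K27ac stood at 63.4 and 58.6 with vehicle and 61.4 in activin replicate 1, and had no peak in activin replicate 2.

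Smad6 encodes an inhibitory SMAD best known for limiting BMP signalling. Its region (chr9:64021941-64022186, 19 bp upstream) had SMAD2/3 at 59.8 in vehicle replicate 1, none in vehicle replicate 2, and 77.5 and 80.9 with activin. FOXL2 stood at 50.4 and 49.1 in vehicle against 29.7 and 41.6 in activin, lower without overlap. H3K27ac stood at 62.0 and 55.8 (vehicle) and 78.9 and 81.5 (activin), higher without overlap. At the region between Gm20544 and Smad7, SMAD2/3 was found in all 4 libraries, at 86.0 and 45.1 without activin and 95.4 and 96.9 with it. FOXL2 there stood at 62.3, 69.7, 53.2 and 78.5 and H3K27ac at 99.2, 99.5, 100 and 99.2 in the same order, and in both the vehicle and activin ranks overlapped.

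**Figure D2:**
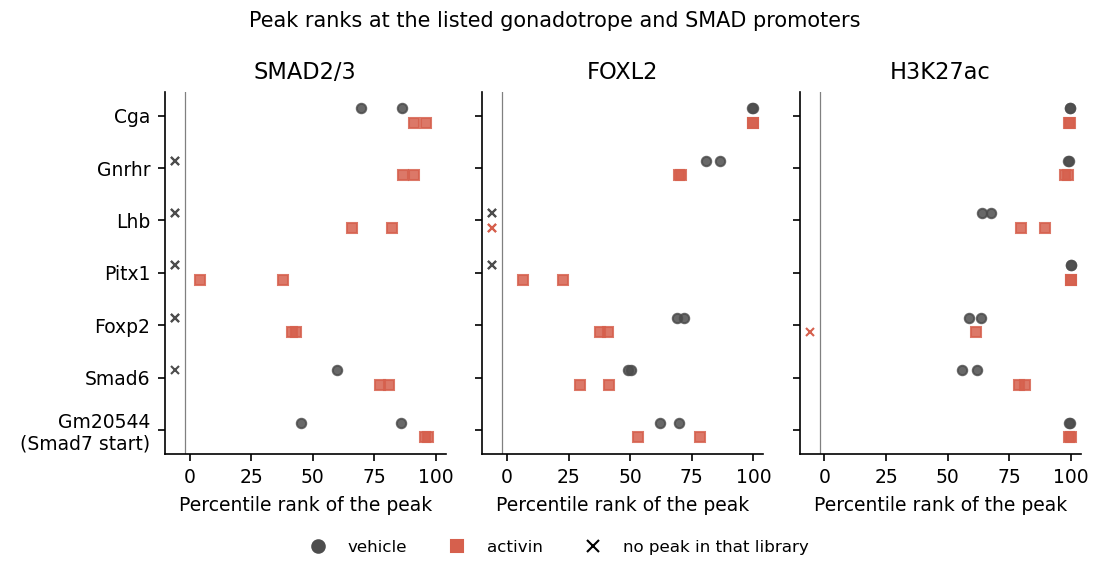
Percentile rank of the SMAD2/3, FOXL2 and H3K27ac peak at 7 promoter regions, with a point for each of 2 vehicle (circles) and 2 activin (squares) libraries and a cross where a library had no peak. Cga has a peak in all 12 libraries, Lhb has no FOXL2 peak, and at Gnrhr, Foxp2 and Smad6 the FOXL2 squares lie left of the circles.

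In fold enrichment, the authors' ratio of the peak's signal over background, the 176 regions had a median of 5.95 in activin replicate 1 (range 2.34 to 22.7) and 5.81 in replicate 2 (2.42 to 16). The distal regions had medians of 6.39 and 5.95, and the median percentile ranks were 60 and 55.2 at promoters against 65.7 and 56.2 at distal regions. The 15 regions of highest mean rank included 6 genes that the authors' annotation gives as protein-coding. RefSeq lists Gm15401, which is among the 6, as a long non-coding RNA. A vehicle library also had SMAD2/3 at 12 of the 15. FOXL2 was present in all 4 libraries at 14 of them and H3K27ac at 14. Beside the genes described below and Cga, Gm20544 and Gm15401, they were Gm38059, 4930402K13Rik, Gm37941, Olfr1177-ps, 1810064F22Rik, Vmn2r-ps21 and SCARNA15, of which only 4930402K13Rik is annotated as protein-coding. At Gm38059 (chr7:49468776-49469146) H3K27ac stood at 69.6 and 67.4 in vehicle against 96.1 and 95.6 in activin, and at SCARNA15 (chr1:127332595-127332923) it stood at 17.8 in vehicle replicate 1, was absent in vehicle replicate 2, and stood at 88.1 and 64.2 after activin. Both starts thus had their higher acetylation ranks in the activin libraries.

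The first of these was Cdc42bpa, which encodes a kinase that acts below the small GTPase CDC42. Its region (chr1:180109755-180110138) lies 945 bp downstream of a start of this gene. The SMAD2/3 peak had fold enrichments of 11.5 and 16 with activin and 4.76 and 3.67 with vehicle. FOXL2 ranks there were 99.0 and 96.6 in vehicle against 99.0 and 98.4 in activin, which overlap, and H3K27ac ranks 89.6 and 89.2 against 92.0 and 90.0, which do not. At Mir6335, a microRNA gene (chr2:67781052-67781468), SMAD2/3 stood at 98.2 and 98.0 with activin and 43.4 and 60.4 with vehicle, and FOXL2 at 99.8 or above in all 4 libraries. The highest fold of all, 22.7 in activin replicate 1, was at the pseudogene Gm28906, with 14.2 in replicate 2 and 7.65 and 5.99 in the vehicle libraries.

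Gdf9, which encodes a ligand of the TGF-beta family secreted by oocytes, had SMAD2/3 at 73.4 in vehicle replicate 1, none in vehicle replicate 2, and 98.3 and 96.5 with activin (chr11:53431693-53432266). H3K27ac there stood at 99.7 and 99.7 (vehicle) and 100 and 100 (activin), places 14 and 15 of the activin lists. Clk4, which encodes a kinase of splicing factors, had SMAD2/3 only with activin, at 93.8 and 90.7 (chr11:51261945-51262498). Its H3K27ac stood at 92.8 and 92.2 without activin and 95.1 and 97.7 with it, and its FOXL2 ranks, 61.7, 71.1, 64.4 and 60.8, overlapped.

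A SMAD2/3 peak was already present without activin at 31 of 176 promoter regions (17.6%, 95% Wilson interval 12.7 to 23.9, counting error only). This was so at 10.1% of all 5162 shared regions. By library the share was 17.0% in vehicle replicate 1 and 7.39% in vehicle replicate 2, against 9.67% and 2.55% of the distal regions. The mean difference was 6.11 percentage points, higher at promoters in 2 of 2 libraries (exact sign-flip permutation test over 2 libraries, two-sided, p = 0.5, the smallest it can give), and it was 11.1 within 500 bp and 2.24 within 2000 bp. Without vehicle replicate 1, which had 605 of the vehicle peaks, the share at promoters was 7.39%.

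These 31 regions lay nearer to the start. Their median absolute distance was 197 bp against 518 bp at the other 145, and 18 of the 51 regions within 250 bp of a start had vehicle SMAD2/3 (35.3%), against 9.52% beyond that and up to 500 bp, and 10.8% beyond 500 bp. A vehicle peak was called most often among the strongest activin peaks. When all shared regions were cut at the quartiles of mean rank into 4 sets, from weakest to strongest, the shares were 7.69%, 15.4%, 14% and 40% at promoters and 1.21%, 1.44%, 4.60% and 31.8% at distal regions, so the promoter share was the higher in each set. These differences were not tested.

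At 12 regions both vehicle libraries had the peak, Cga and Cdc42bpa among them. Cga, Cdc42bpa, Mir6335, Gm20544, Gm28906, Olfr1177-ps and Syt7 ranked higher in both activin lists than in either vehicle list. Ccny, Cenpu and Gm23971 overlapped, and Mrpl32 and the region of 2700016F22Rik and Ubr4 ranked lower. Mrpl32 encodes a protein of the mitochondrial ribosome. Its region (chr13:14613021-14613233, 72 bp upstream) stood at 98.0 and 72.9 with vehicle, with folds of 9.38 and 5.40, and at 52.6 and 68.8 with activin, with folds of 4.72 and 5.82. There was no FOXL2 peak, and H3K27ac stood at 78.9 and 80.9 in vehicle against 60.9 and 72.5 in activin. The region of 2700016F22Rik and Ubr4 (chr4:139380319-139380567) stood at 98.2 and 84.7 (vehicle) and 79.2 and 74.9 (activin), again with no FOXL2 peak. Ccny, which encodes cyclin Y, stood at 87.9 and 58.3 without activin and 83.1 and 81.5 with it. Syt7, which encodes a calcium sensor of vesicle fusion, stood at 11.7 and 14.6 against 21.0 and 66.4, with H3K27ac at 90.5 or above in all 4 libraries and FOXL2 in vehicle replicate 2 alone. Since the vehicle lists held far fewer peaks, such ranks give order within a list only.

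FOXL2 lay at 133 promoter regions in both activin libraries, 75.6% (68.7 to 81.3), where the share over all 5162 shared regions was 81.6%. In vehicle replicates 1 and 2 and activin replicates 1 and 2 the shares at promoters were 75.6%, 74.4%, 77.3% and 81.8%, against 75.1%, 76.0%, 83.9% and 84.4% at distal regions. Averaged over the 4 libraries, promoters were lower by 2.58 percentage points, and lower in 3 of 4 libraries (exact sign-flip permutation test, two-sided, p = 0.25, where 0.13 is the smallest possible). The difference was −0.538 points (p = 0.75 by the same exact permutation test) among SMAD2/3 peaks with −log10 q of at least 5, and −7.50 when SMAD2/3 activin replicate 1 was left out of the choice of regions. The difference was −7.50 and −7.03 points when the SMAD2/3 regions were taken from activin replicate 2 or 1 alone, and −1.24 without FOXL2 activin replicate 1. The summits of SMAD2/3 and FOXL2 lay a median of 28.5 and 32.0 bp apart in the 2 activin libraries (29 and 30 bp at distal regions), and within 100 bp of each other at 83.8% and 81.2%.

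**Figure D3:**
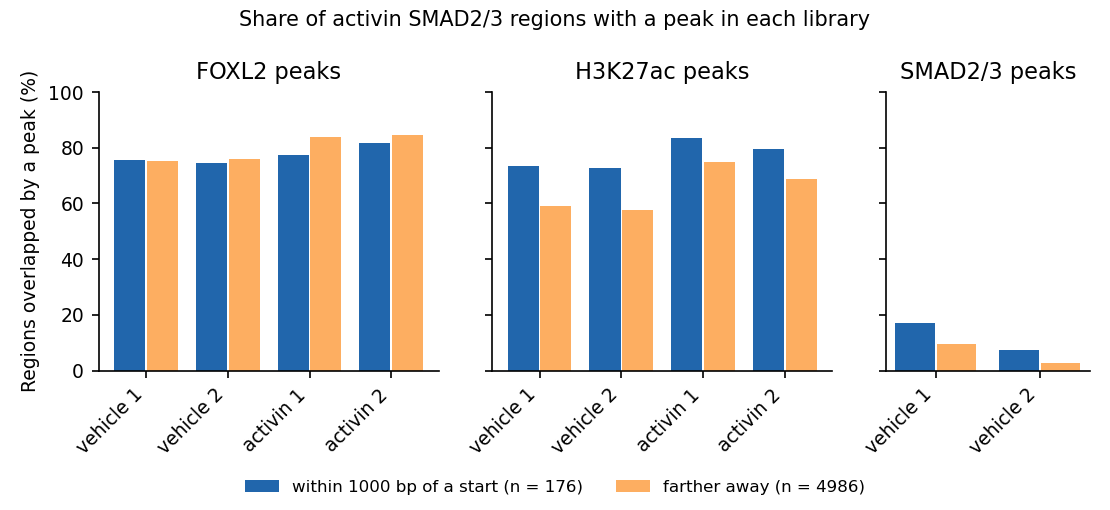
Percent of promoter (blue, n = 176) and distal (orange, n = 4986) activin SMAD2/3 regions overlapped by a peak of FOXL2, H3K27ac or vehicle SMAD2/3, with a pair of bars for each library. H3K27ac and vehicle SMAD2/3 bars are higher at promoters in every library, and FOXL2 bars are lower in 3 of 4.

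FOXL2 was present in all 4 libraries at 116 promoter regions, 65.9% against 69.9% of all shared regions, and in none at 23, 13.1% against 11.5%. Of these 23, 11 were protein-coding, Lhb, Mrpl32, Eya2, Cdh5, Elmsan1 and Usp37 among them. It was found in both activin and neither vehicle library at 9 regions, 5.11%, against 7.07% of all shared regions, and the reverse at 1. The share with FOXL2 was 4.55 points higher with activin (exact permutation test of 2 against 2 libraries, two-sided, p = 0.33, the smallest it can give), 2.27 points higher without FOXL2 activin replicate 2, and 1.33 points higher when SMAD2/3 activin replicate 2 was left out of the choice of regions. The distal shares of 75.1% and 76.0% in vehicle and 83.9% and 84.4% in activin lay further apart.

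At the 116 regions with FOXL2 in all 4 libraries, the median FOXL2 rank was 73.6 and 74.8 in vehicle against 82.2 and 84.0 in activin. The difference was 8.86 percentile points (exact permutation test, p = 0.33, the smallest possible). It was 7.59 without FOXL2 vehicle replicate 1 and 14 without FOXL2 vehicle replicate 2. At 1801 other promoters with FOXL2 and no activin SMAD2/3 the medians were 55.9, 60.8, 58.0 and 60.4, and the difference was larger by 8.04 points at the SMAD2/3 promoters (exact permutation test, p = 0.33). Distal SMAD2/3 regions had medians of 82.5 and 84.0 in vehicle against 89.8 and 90.0 in activin. Both activin ranks were above both vehicle ranks at 57 of 116 regions, 49.1%, and below at 23. Over all 58444 FOXL2 regions 29.9% were higher and 28.1% lower in this way, at the other promoters 22.6% and 25.5%, and at distal SMAD2/3 regions 52.4% and 20.8%.

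C1d, which encodes a cofactor of the nuclear exosome, had the widest such difference, with FOXL2 at 4.68 and 28.0 (vehicle) and 91.2 and 92.6 (activin) (chr11:17258293-17258480). Its fold enrichment was 3.20 and 4.65 without activin and 22.1 and 22.3 with it, although its SMAD2/3 peaks were weak, at ranks 25.7 and 24.2. Nmral1, which encodes a redox-sensing protein, followed with FOXL2 at 5.15 and 44.0 against 79.0 and 80.7, where the strongest peak of vehicle replicate 1 had its summit some distance from the others (chr16:4719364-4719659). The non-coding genes Gm13920 and Gm12065 and the gene Tpgs2, whose product belongs to a tubulin polyglutamylase, completed the 5 largest, with activin ranks of 84.7 to 94.3 and vehicle ranks of 27.5 to 56.7. At the other end were Gm11250, at 39.8 and 34.8 in vehicle against 3.76 and 1.35 in activin, and A930019D19Rik, at 48.8 and 51.5 against 3.69 and 17.4, with H3K27ac above rank 99 in all 4 libraries at the latter.

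Gm15401 had FOXL2 at 72.6 and 69.0 with activin and none with vehicle (chr6:72629242-72629703), SMAD2/3 at 92.9 and 89.9 with activin only, and H3K27ac at 36.7 and 28.5 (vehicle) and 92.5 and 79.8 (activin). All 3 targets were thus higher or present only with activin at this start. Csrp2, which encodes a LIM-domain protein, had SMAD2/3 at 50.9 and 52.8 and FOXL2 at 62.4 and 63.6 with activin only, and H3K27ac at 57.6 and 15.4 against 82.3 and 87.7 (chr10:110919523-110919822). The further activin-only FOXL2 regions named here were 4930579G24Rik, the second region of Gm12065 and Tmem106b, a lysosomal membrane protein gene.

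H3K27ac lay at 134 promoter regions in both activin libraries, 76.1% (69.3 to 81.8), where the share over all shared SMAD2/3 regions was 66.6%. By library the shares were 73.3% and 72.7% without activin and 83.5% and 79.5% with it, against 59.1%, 57.8%, 74.8% and 68.6% at distal regions. The promoter share was higher in 4 of 4 libraries, by a mean of 12.2 points (exact sign-flip permutation test, two-sided, p = 0.13, the smallest possible with 4 libraries), and by 7.46 points within 2000 bp of a start. H3K27ac peaks are broad, and the share at promoters was 61.3% where a peak had to cover at least 50% of a region.

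The acetylated peaks at these regions were also wide. Their median width was 2192 and 2158 bp with vehicle and 2771 and 2587 bp with activin, against 832 to 976 bp at 7537 other acetylated promoters and 2625 to 2994 bp at distal SMAD2/3 regions, differences that were not tested. In each library 4 broad peaks covered more than 1 of the 176 regions, and these regions are not independent. FOXL2 and H3K27ac were both present in both activin libraries at 103 regions, 58.5%, FOXL2 alone at 30, H3K27ac alone at 31 (17.6%) and neither at 12 (6.82%). Over all shared regions both were present at 53.1%, FOXL2 alone at 28.5%, H3K27ac alone at 13.5% and neither at 4.92%. In none of the 8 FOXL2 and H3K27ac libraries was there a peak at Gm12061, Zfp786 (a zinc finger gene), Gm26311, Gm37289 and Gm4349.

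The share with H3K27ac was 8.52 points higher with activin than with vehicle (exact permutation test, p = 0.33, the smallest possible). At distal SMAD2/3 regions the shares of 59.1% and 57.8% in vehicle and 74.8% and 68.6% in activin lay further apart. H3K27ac was found in both activin and neither vehicle library at 8 promoter regions, 4.55%, against 9.12% of all shared regions, and the reverse at 0. Among these 8 were Apof, an apolipoprotein gene, at 63.4 and 53.7 (chr10:128268178-128268634) and Eya2, which encodes a transcriptional coactivator, at 19.2 and 25.3 (chr2:165654277-165654487). The non-coding genes n-R5s161, 1600010M07Rik and Gm5532 were the others of highest SMAD2/3 rank, with activin H3K27ac ranks between 38.7 and 60.5.

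At the 117 regions with H3K27ac in all 4 libraries the median rank was 88.9 and 89.2 in vehicle against 93.2 and 91.5 in activin, a difference of 3.28 points. That difference was 1.15 within 500 bp of a start (exact permutation test, p = 0.667) and 7.54 with ranks by fold enrichment. The other acetylated promoters had medians of 72.9, 72.1, 72.8 and 71.2, and the difference was larger by 3.74 points at the SMAD2/3 promoters (exact permutation test, p = 0.33 for both). Distal SMAD2/3 regions had medians of 83.8 and 83.6 in vehicle against 92.4 and 90.3 in activin, a wider difference than at the SMAD2/3 promoters that was not tested. Both activin ranks were above both vehicle ranks at 69 of 117, 59.0%, and below at 23. Over all 24356 H3K27ac regions 26.4% were higher and 31.2% lower, at other acetylated promoters 20.5% and 25.6%, and at distal SMAD2/3 regions 65.8% and 16.2%. Of the 77 regions with both targets in all 4 libraries, 23 had FOXL2 and H3K27ac both higher and 6 had both lower. FOXL2 was higher with H3K27ac lower at 3, and FOXL2 lower with H3K27ac higher at 6. These joint counts have no comparison with other regions. Whether FOXL2 and H3K27ac were higher together more often than their separate shares of 49.1% and 59.0% would give was not tested.

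The widest upward differences in H3K27ac rank were at Gm27649, a small nuclear RNA gene, Gm15401, Csrp2, Ppp1r1c and Hsd17b1. Gm27649 stood at 3.39 and 6.41 in vehicle against 82.3 and 78.4 in activin, from near the bottom of the list to its upper part (chr12:116478831-116479166). Ppp1r1c, a gene of a protein phosphatase inhibitor family, stood at 28.7 and 21.1 (vehicle) and 62.6 and 77.3 (activin), with FOXL2 at 89.2 and 93.7 against 98.8 and 98.7 (chr2:79785366-79785895). Hsd17b1, which encodes an enzyme of estradiol synthesis, stood at 39.2 and 18.0 against 76.1 and 70.5 (chr11:101078223-101078433). The widest downward differences were at WI1-1749A12.1, Mrpl32, Actr3, Gm7776 and Cst8. Actr3, which encodes a subunit of the Arp2/3 actin nucleator, had H3K27ac at 93.1 and 79.6 without activin and 73.4 and 77.5 with it, and a SMAD2/3 peak at 94.7 in vehicle replicate 1 (chr1:125435808-125436029). Cst8, a cystatin gene, had H3K27ac at 99.8 and 99.8 against 91.8 and 90.6, and FOXL2 at 93.0 and 97.3 against 84.8 and 79.0 (chr2:148799351-148799600).

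**Figure D4:**
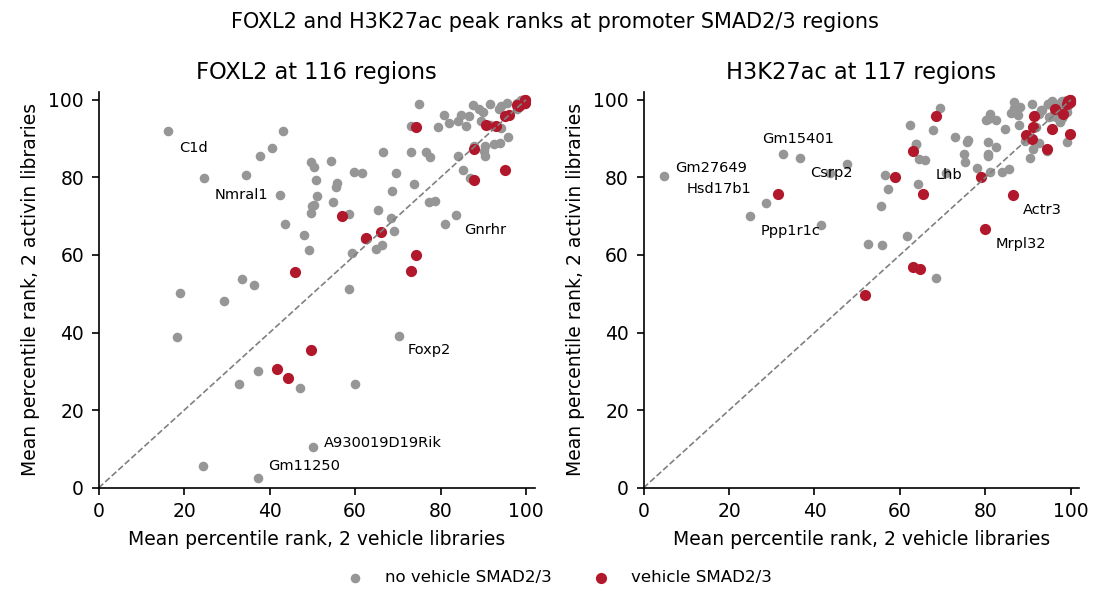
Mean percentile rank over 2 vehicle libraries (horizontal) and 2 activin libraries (vertical) of FOXL2 at 116 and H3K27ac at 117 promoter SMAD2/3 regions. Points above the dashed line rank higher with activin; red points had SMAD2/3 in a vehicle library and grey points did not.

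Regions with and without SMAD2/3 in vehicle cells differed in this order. Where SMAD2/3 was present in no vehicle library, FOXL2 ranked higher in both activin libraries at 52 of 94 regions and lower at 16, and H3K27ac higher at 60 of 91 and lower at 16. Where it was present in a vehicle library, FOXL2 ranked higher at 5 of 22 (22.7%) and lower at 7 (31.8%). H3K27ac there ranked higher at 9 of 26 (34.6%) and lower at 7 (26.9%). These shares lay near those over all FOXL2 regions, 29.9% higher and 28.1% lower, and over all H3K27ac regions, 26.4% and 31.2%. The difference between regions with and without vehicle SMAD2/3 was not tested. Of the 35 promoter regions among the strongest of the 4 sets by SMAD2/3 rank, 14 had vehicle SMAD2/3, and the part of peak strength in this order was not tested.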

How the data were processed

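ChIP-seq peak lists of 12 libraries were analysed. Per the submitters' processing notes, Bowtie2, MACS2 and HOMER were used with GRCm38 and mm10; their versions, roles and parameters are not given in the sources used here. The authors called peaks per library, as the deposited peak names show. The deposited columns hold the authors' fold enrichment, a ratio on a linear scale, the −log10 of p and q, and a score of 10 times the −log10 q. The deposited annotation tables give each peak's distance to the nearest start. Coordinates are printed 1-based. From these, Python 3.11.15 (pandas 2.3.3, numpy 2.4.6, scipy 1.17.1) merged peaks, counted overlaps of at least 1 bp and ranked peaks within each list by −log10 q, taking the strongest peak over a region. Shares carry 95% Wilson intervals, and tests were exact permutations over libraries. The code was tested on simulated peak lists. The members, gene lists and motifs were chosen with earlier results of these data known. Genes named are the 15 strongest, all genes of a list, up to 10 with SMAD2/3 in both vehicle libraries, those at the distance limit, the 5 widest rank differences each way, and 5 present with activin only or with neither FOXL2 nor H3K27ac; some others were named after their values were seen. RefSeq symbols matched 127 of 176 regions. Alternatives covered the distance, overlap, peak thresholds, ranking, gene type, left-out libraries and a replicate block. One listed gene is not reported here.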

Additional observations from a re-analysis of the deposited data

How the results depend on the processing

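Of 222 recomputed values none changed sign, and 207 counted as unchanged. A tested value counted as unchanged if it kept its side of 0.05, which no test here could cross, so that part was fixed in advance. Shares and region counts had to stay within the Wilson interval or 1.5 times, and some shares did not use the library left out. The number of regions was 93 within 500 bp, 357 within 2000 bp and 94 with protein-coding starts only, and 222 to 300 when a single activin SMAD2/3 library chose them. The share with H3K27ac was 61.3% with an overlap of at least 50% and 69.3% with −log10 q of at least 5, and the share with vehicle SMAD2/3 was 12% within 2000 bp. Leaving out a library in turn gave 64.0% to 81.8% for FOXL2, 71.6% to 83.5% for H3K27ac and 7.39% to 18% for vehicle SMAD2/3. The values 81.8% and 83.5% needed a peak in only the activin library that remained. FOXL2 ranked higher at 44.2% to 62.0% of regions and H3K27ac at 47.6% to 66.7%. Without a FOXL2 or H3K27ac library this order was taken over 3 libraries and was easier to meet. Those settings gave 54.2% to 62.0% and 62.2% to 66.7%, with no matching share over all regions. With a library left out, the promoter minus distal difference ranged from −7.50 to −1.24 points for FOXL2 and 11.3 to 14.6 for H3K27ac. For vehicle SMAD2/3 it was 3.65 to 7.38, being 3.65 without SMAD2/3 activin replicate 2. Over all settings it was −7.50 to −0.538 for FOXL2, 7.46 to 17.1 for H3K27ac and 2.24 to 11.1 for vehicle SMAD2/3, and the H3K27ac median rank difference 1.15 to 7.54. The cause of these shifts was not tested. Replicate numbers were not shown to pair the samples: same-numbered libraries deviated together with r = 0.13 for FOXL2 and −0.03 for H3K27ac, across regions, which are not replicates. The replicate block took the median over regions of the rank difference within each replicate number, not the difference between library medians used above. By this other measure the difference was 3.39 for FOXL2 and 2.02 for H3K27ac, where the library medians gave 8.86 and 3.28. That against other promoters was 4.02 and 2.57. At 54.3% and 62.4% of regions each activin rank was above the vehicle rank of the same number, a looser order than that used above. With 2 libraries a group no test here can reach 0.05, and read depth per region is unknown.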
